A study of Mus musculus with 6 samples.

Results

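The genes described here are the ligands and receptors of the tumour necrosis factor (TNF) superfamilies in mouse fetal thymocytes. They were chosen by symbol, as every gene whose annotated symbol begins with Tnfsf or Tnfrsf together with Tnf, Fas, Fasl, Lta, Ltb, Ltbr, Cd40, Cd40lg, Cd70 and Eda2r, where a probe set carried that symbol alone. This gave 39 of 19937 genes tested, with 15 ligands, 5 receptors with a death domain, 15 receptors without a death domain and 4 receptors grouped as decoys. Each of the 39 was read by 1 probe set. Tnfsf12 and Tnfsf13 share a probe set with another symbol and were not counted, and Cd27 was left out by the rule and is given only as a check.

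Thy1.2+ cells were purified with magnetic beads from E17.5 fetal thymi, and all embryos were Rag1-/-. There were 3 groups of 2 arrays: cells from thymi stimulated for 40 h with anti-CD3 and 50 µM 79-6, an inhibitor of the transcriptional repressor Bcl6; cells stimulated for 40 h with anti-CD3 and the vehicle DMSO; and cells from fresh, unstimulated thymi (0 h). The series design calls the stimulated material fetal thymic organ cultures, a term the sample labels leave out. The Rag1 deletion, shared by all 3 groups, blocks antigen receptor rearrangement, which stops unstimulated thymocytes at the double-negative stage. Anti-CD3 is known to act on the CD3 chains of such cells, and the stage of the stimulated cells was not measured. Fresh cells had neither culture nor stimulus, and effects of vehicle, time, culture and anti-CD3 cannot be told apart in DMSO against fresh. The labels do not say whether replicates came from separate litters or cultures, and p-values then measure only the spread between arrays.

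Ligands of the TNF superfamily are mostly membrane proteins that act as trimers on receptors of a neighbouring cell. Receptors with a death domain can start apoptosis through Fadd and caspase 8, and some, such as Tnfrsf1a, also activate NF-κB. Most others bind TRAF adaptors and activate NF-κB, and decoys bind ligand without a full signalling tail. In the thymus, RANK ligand, lymphotoxin and CD40 ligand made by lymphoid cells are known to drive the growth of medullary epithelial cells, and receptors such as CD137, OX40 and CD30 are known as costimulators of activated T cells.

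After 40 h with anti-CD3 in DMSO, the death receptor Fas, the ligand Ltb, the cluster receptor Tnfrsf26 and the TNF receptor Tnfrsf1a rose. The ligands Tnfsf10, Tnfsf8 and Tnfsf11 fell, as did the receptors Tnfrsf9, Tnfrsf8, Tnfrsf4 and Tnfrsf21. Between 79-6 and DMSO 6 members were called, each with a change under 2-fold: Tnfrsf26, Tnfrsf13c, Tnfrsf9, Ltb and Tnfsf8 rose and Tnfrsf8 fell. Across the 3 comparisons 14 members passed the threshold at least once and 25 in none. All 14 passed it for 79-6 against fresh, where 26% of all genes did.

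A member was called when its adjusted p in limma, with Benjamini-Hochberg adjustment over all 19937 genes, was under 0.05. For DMSO against fresh, 4 of 39 members were called higher and 7 lower, 11 in all, beside 19.6% of all genes tested (8.89% higher and 10.7% lower). For 79-6 against DMSO, 5 were called higher and 1 lower, beside 4.36% of all genes (2.38% higher and 1.98% lower). For 79-6 against fresh, 7 were called higher and 7 lower, beside 26% of all genes (12% higher and 13.9% lower). Members called with a change of at least 2-fold numbered 3 for DMSO against fresh (2.6% of all genes), 0 for 79-6 against DMSO (0.406% of all genes), where limma gave 11 members and 4079 of all 19937 genes an unadjusted p under 0.05, and 5 for 79-6 against fresh (3.42% of all genes). The median change of the 39 was -0.01, 0.12 and 0.09 on the log2 scale in these 3 comparisons, and that of all genes was 0.02, 0.02 and 0.05. Any pair of these comparisons shares the arrays of 1 group, so their values are given side by side and do not repeat each other. With 79-6, 33 of 39 members had a positive change relative to DMSO, against 55.2% of all genes. When arrays were set to 1 median this became 29 of 39 against 42.1%. Among the 25 members never called, changes ran from -0.26 (Tnf) to 0.17 (Cd70) for DMSO against fresh, from -0.07 (Tnfrsf10b) to 0.47 (Tnf) for 79-6 against DMSO and from -0.14 (Ltbr) to 0.29 (Tnfsf4) for 79-6 against fresh.

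**Figure D1:**
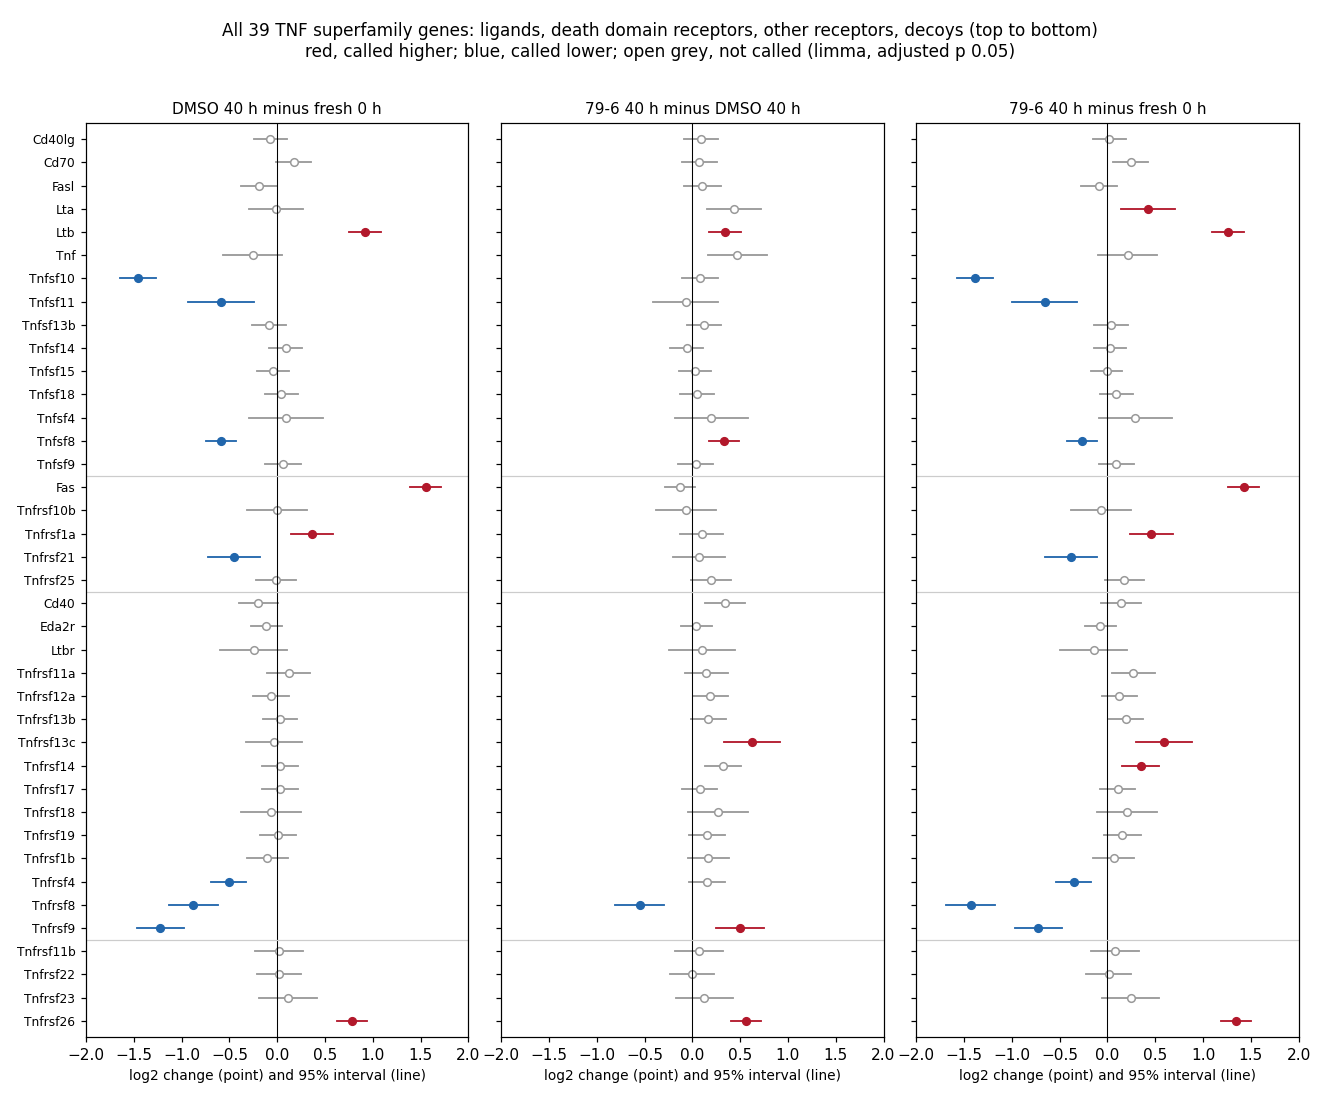
Log2 change (x axis, point) with its 95% interval (line) of all 39 TNF superfamily genes (rows) in the 3 comparisons (panels), with ligands, death domain receptors, other receptors and decoys from top to bottom. Red points were called higher, blue points lower and open grey points were not called. Of the members, 11 are coloured for DMSO against fresh, 6 for 79-6 against DMSO and 14 for 79-6 against fresh.

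Of the 39 members, 26 had a mean log2 signal over the 6 arrays at or above the 40th percentile of all genes (6.43), and 13 lay below it. Those 13 were Cd40lg, Cd70, Eda2r, Fasl, Lta, Tnfrsf11b, Tnfrsf17, Tnfrsf19, Tnfsf4, Tnfsf9, Tnfsf13b, Tnfsf15 and Tnfsf18, and of them Lta was called. No detection p-values were used, so for these genes low expression and a probe set near background cannot be told apart. In mixed cells, fewer cells of a type and less RNA per cell cannot be told apart either.

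Replicate arrays correlated at 0.9968 to 0.9977 across genes, and array medians ran from 99.31 to 103.6 in intensity. Bcl6, the target of the inhibitor, whose RNA level does not measure inhibition, had log2 signals of 8.54 and 8.51 with 79-6, 8.98 and 9.17 with DMSO and 7.51 and 7.36 in fresh cells. Cyp1a1 and Ahrr, targets of the aryl hydrocarbon receptor, were 12.66-fold and 6.62-fold higher with 79-6 than with DMSO (adjusted p = 0.000216 each by limma). Whether the changes with 79-6 came through Bcl6 was not tested. Thy1, the antigen of the purification, had log2 signals of 13.05 and 13.08 with 79-6, 13.20 and 13.26 with DMSO and 12.82 and 12.78 in fresh cells. Markers of other cells were present and moved between groups. For thymic epithelium (14 of 14 measured), the summed intensity was 5046 to 5212 with 79-6, 4067 to 5645 with DMSO and 12154 to 12235 in fresh cells, and 12 of 14 fell with DMSO relative to fresh. For macrophages and dendritic cells (17 of 17) it was 26988 to 29747, 19620 to 21758 and 8075 to 11212 in the same order, and 5 of 17 rose with DMSO relative to fresh and 3 with 79-6 relative to DMSO. For NK and innate lymphoid cells (13 of 14) it was 13321 to 14101, 8859 to 9159 and 10323 to 13249, and 5 of 13 rose with 79-6 relative to DMSO. For B cells (9 of 10) it was 3032 to 3320, 2345 to 2430 and 2886 to 2933. Most of that sum was Cd79b, with mean intensities of 2660, 1885 and 2246. The median log2 signal of the 9 was 6.23 to 6.24, 6.15 to 6.16 and 6.36 to 6.42. Sums were 41609 to 43338, 42815 to 43555 and 51322 to 52612 for T-lineage genes (10 of 12), 6776 to 8713, 5708 to 5810 and 4172 to 4837 for granulocytes and mast cells (13 of 13), 4538 to 4581, 3987 to 4576 and 5219 to 5644 for mesenchyme and endothelium (12 of 12), and 1670 to 2115, 1007 to 1031 and 1219 to 1987 for erythroid cells and platelets (7 of 10). Single genes weigh heavily in such sums. For T-lineage genes, 4 of 10 were called higher and 5 lower with DMSO relative to fresh. Cd3g alone had mean intensities of 8662, 7961 and 12752 in the order of the sums. Of the granulocyte and mast cell markers, 1 was called higher and 3 lower with 79-6 relative to DMSO. Mmp8 alone had mean intensities of 4006, 1631 and 99.6 in the order of the sums. Median log2 signals of that list were 7.74 to 8.03, 8.12 to 8.40 and 7.12 to 7.46. For mesenchyme and endothelium, Pdgfrb alone had 551, 711 and 2156. Medians there were 7.67 to 7.78, 7.37 to 7.44 and 7.43 to 7.46. For macrophages and dendritic cells, Lyz2 alone had 10168, 8518 and 579. Medians of that list were 9.72 to 9.85, 9.41 to 9.50 and 7.69 to 8.435. Arrays list no gene at 0, and the part of these cells in the results below was not tested.

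Upstream sequence is shown for the members with the largest changes that RefSeq's table holds (30 of 39 members matched), so that the changes below can be read beside it. Each line gives the 250 bases before an annotated start, 5′ to 3′ on the gene's strand, from RefSeq on GRCm38.p6. Capitals mark matches on either strand to GGG and TTTCC with any 2 bases between, a form of the NF-κB site, to GCGTG, the core of the xenobiotic response element bound by the aryl hydrocarbon receptor, and to TTCNNNGAA, the palindrome shared by STAT and Bcl6 type sites. For Tnfrsf9 the window of the downstream of its annotated starts is shown, since the other holds no match.
Ltb, chr17:35194257-35194506, plus strand: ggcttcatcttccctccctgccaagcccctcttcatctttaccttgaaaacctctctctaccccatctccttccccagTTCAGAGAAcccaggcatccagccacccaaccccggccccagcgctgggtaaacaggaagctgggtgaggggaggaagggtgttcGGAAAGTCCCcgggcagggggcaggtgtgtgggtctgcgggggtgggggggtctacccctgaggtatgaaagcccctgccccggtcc
Tnfrsf9, chr4:150927749-150927998, plus strand: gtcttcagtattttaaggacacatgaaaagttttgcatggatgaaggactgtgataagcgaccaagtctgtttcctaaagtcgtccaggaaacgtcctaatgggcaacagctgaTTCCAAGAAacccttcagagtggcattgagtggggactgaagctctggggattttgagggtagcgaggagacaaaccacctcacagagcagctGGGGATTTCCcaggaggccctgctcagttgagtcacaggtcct
Fas, chr19:34290409-34290658, plus strand: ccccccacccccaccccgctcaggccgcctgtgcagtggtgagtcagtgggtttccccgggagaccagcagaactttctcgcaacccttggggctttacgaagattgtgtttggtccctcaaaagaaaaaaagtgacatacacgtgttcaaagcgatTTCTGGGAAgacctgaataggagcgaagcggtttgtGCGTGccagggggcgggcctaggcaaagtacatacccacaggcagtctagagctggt
Tnfrsf8, chr4:145315165-145315414, minus strand: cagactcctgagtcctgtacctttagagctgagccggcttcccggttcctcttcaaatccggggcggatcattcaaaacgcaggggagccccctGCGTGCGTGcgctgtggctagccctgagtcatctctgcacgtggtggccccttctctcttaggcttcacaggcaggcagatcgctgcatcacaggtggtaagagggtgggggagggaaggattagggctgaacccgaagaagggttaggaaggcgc
Tnfsf10, chr3:27316827-27317076, plus strand: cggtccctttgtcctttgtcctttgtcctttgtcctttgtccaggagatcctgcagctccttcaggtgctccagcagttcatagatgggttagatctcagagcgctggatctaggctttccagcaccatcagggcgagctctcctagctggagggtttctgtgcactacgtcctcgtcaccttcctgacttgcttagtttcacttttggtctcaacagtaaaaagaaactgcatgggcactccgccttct
In Ltb the NF-κB form lies 87 to 78 bases before the start on the opposite strand, and the palindrome 172 to 164 bases before it. In Tnfrsf9 the NF-κB form lies 43 to 34 bases before the start and the palindrome 136 to 128. Fas holds the palindrome at 93 to 85 and GCGTG at 57 to 53, Tnfrsf8 holds 2 overlapping copies of GCGTG, and the Tnfsf10 window holds none of these letters. Of all 32851 windows of 250 bases, 1.41% hold the NF-κB form, 28.2% GCGTG and 7.02% the palindrome, against 3, 10 and 8 of 34 windows of members. A match is a description of letters and not of binding.

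Of the 15 ligands, Ltb and Tnfsf8 were called in all 3 comparisons. Ltb, which with Lta forms the membrane lymphotoxin that signals through Ltbr, had log2 signals of 10.85 and 10.76 with 79-6, 10.45 and 10.48 with DMSO and 9.53 and 9.57 in fresh cells. The 3 groups did not overlap, with 79-6 highest and fresh lowest. Ltb was 1.89-fold higher with DMSO than in fresh cells (log2 change 0.92 ± 0.07 SE, adjusted p = 0.000209 by limma) and 2.40-fold higher with 79-6 than in fresh cells (adjusted p = 4.77e-05 by limma). Between 79-6 and DMSO the change was 0.34 ± 0.07 (adjusted p = 0.047 by limma). That last call was lost without any 1 of the 6 arrays, at adjusted p-values of 0.0834 to 0.188, and when arrays were set to 1 median (0.0806), and with only the arrays compared (0.0834).

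Lta, whose product also forms a secreted trimer, had log2 signals of 6.62 and 6.63 with 79-6, 6.33 and 6.05 with DMSO and 6.07 and 6.33 in fresh cells. Both 79-6 arrays were above all others, while DMSO and fresh overlapped. It was called for 79-6 against fresh (0.43 ± 0.12 SE, adjusted p = 0.0377 by limma) but not without fresh replicate 1 (0.199), 79-6 replicate 1 (0.0915) or 79-6 replicate 2 (0.124), nor on quantile-normalized values (0.0537). Relative to DMSO the change was 0.44 (95% interval 0.16 to 0.72, adjusted p = 0.0932 by limma). Tnf, the founding member of the family, had 8.27 and 8.38 with 79-6, 7.87 and 7.84 with DMSO and 7.90 and 8.32 in fresh cells. In the model of all arrays Tnf was called in none of the comparisons. Its 79-6 arrays lay above its DMSO arrays (0.47, adjusted p = 0.0976 by limma), while the fresh arrays spanned nearly the same range.

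Tnfsf10, which encodes the death ligand TRAIL, had log2 signals of 8.79 and 8.70 with 79-6, 8.74 and 8.60 with DMSO and 10.13 and 10.13 in fresh cells. Both stimulated groups lay far below fresh cells and overlapped each other. The log2 change was -1.46 ± 0.08 (SE, adjusted p = 4.49e-05 by limma) for DMSO against fresh and -1.38 ± 0.08 (adjusted p = 4.89e-05 by limma) for 79-6 against fresh. Between 79-6 and DMSO it was 0.08 with an adjusted p of 0.636 by limma. TRAIL is known as an interferon-inducible gene.

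Tnfsf8, the ligand of CD30, had 6.57 and 6.57 with 79-6, 6.25 and 6.24 with DMSO and 6.83 and 6.83 in fresh cells. The groups did not overlap, and 79-6 lay between DMSO and fresh. It fell by 0.59 on the log2 scale with DMSO relative to fresh (adjusted p = 0.00103 by limma), with 0.33 ± 0.07 (SE) between 79-6 and DMSO (adjusted p = 0.0444 by limma) and -0.26 ± 0.07 between 79-6 and fresh (adjusted p = 0.0255 by limma). The call between 79-6 and DMSO was lost without any 1 of the 6 arrays (0.0817 to 0.19), on quantile-normalized values (0.0964), on median-scaled values (0.077), with only the arrays compared (0.0822) and with trend and robust settings (0.0665). The call between 79-6 and fresh was lost without either fresh array (0.127 and 0.115) or either 79-6 array (0.0595 and 0.0757), and with trend and robust settings (0.0675).

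Tnfsf11, RANK ligand, had 8.65 and 8.98 with 79-6, 8.93 and 8.84 with DMSO and 9.30 and 9.65 in fresh cells. Fresh arrays were the highest and the stimulated groups overlapped. It fell by 0.59 with DMSO (adjusted p = 0.0287 by limma) and by 0.66 with 79-6 (adjusted p = 0.0149 by limma) relative to fresh. The DMSO call was lost without either DMSO array (0.0976 for replicate 1 and 0.136 for replicate 2) or fresh replicate 2 (0.146), and the 79-6 call without fresh replicate 2 (0.0766) or 79-6 replicate 1 (0.0601). Lymphoid tissue inducer cells also make RANK ligand, and the NK and innate lymphoid marker sums of the 3 groups are given above. In those sums Fcer1g alone had mean intensities of 6212 with 79-6, 5159 with DMSO and 3007 in fresh cells. The part of such cells in the result was not tested.

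The other ligands were called in no comparison. They were Cd40lg, Cd70, Fasl, Tnf, Tnfsf4 (OX40 ligand), Tnfsf9 (CD137 ligand), Tnfsf13b (BAFF), Tnfsf14 (LIGHT), Tnfsf15 and Tnfsf18 (GITR ligand). Fasl, the ligand of Fas and a product of cytotoxic cells, had log2 signals of 5.53 and 5.36 with 79-6, 5.34 and 5.34 with DMSO and 5.51 and 5.56 in fresh cells. The change for DMSO against fresh was -0.19 (adjusted p = 0.161 by limma).

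**Figure D2:**
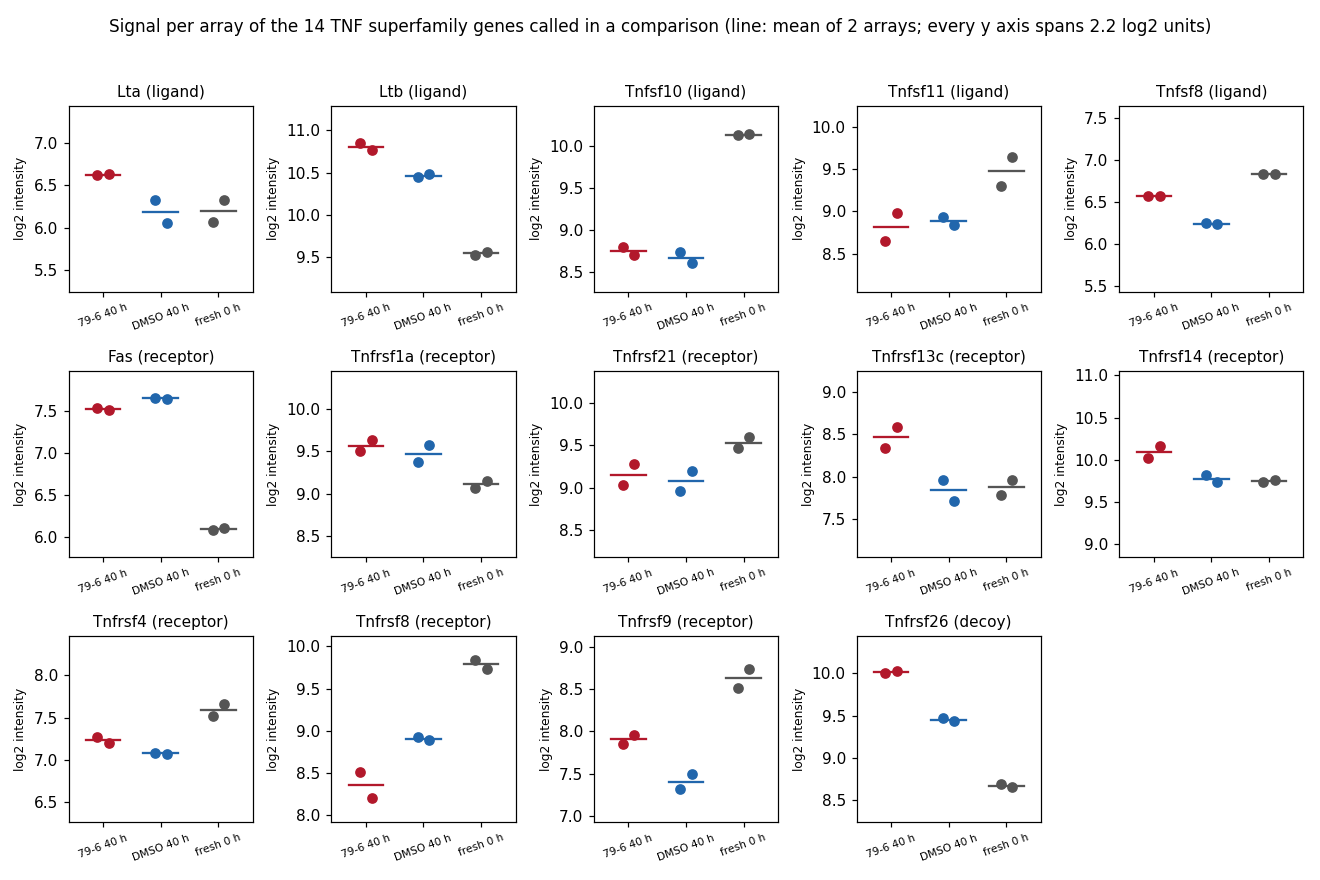
Log2 intensity (y axis, each spanning the same range) of the 14 genes called in at least 1 comparison, with 1 point per array and a line at the mean of 2 arrays, for 79-6 40 h (red), DMSO 40 h (blue) and fresh 0 h (grey) from left to right. Fas and Tnfsf10 separate both stimulated groups from fresh cells, whereas Ltb, Tnfrsf26 and Tnfrsf8 step through DMSO to 79-6 in 1 direction.

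Among receptors with a death domain, Fas moved most. Its log2 signals were 7.53 and 7.50 with 79-6, 7.65 and 7.64 with DMSO and 6.08 and 6.10 in fresh cells, so that both stimulated groups lay far above fresh cells. The change was 1.55 ± 0.07 (SE, 2.93-fold, adjusted p = 2.05e-05 by limma) for DMSO and 1.42 ± 0.07 (2.68-fold, adjusted p = 2.19e-05 by limma) for 79-6 against fresh. For 79-6 against DMSO it was -0.13 (95% interval -0.29 to 0.03). Each of the 6 fits without 1 array called both changes against fresh.

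Tnfrsf1a, the widely expressed TNF receptor with a death domain, had 9.50 and 9.64 with 79-6, 9.37 and 9.57 with DMSO and 9.07 and 9.16 in fresh cells. It rose by 0.36 ± 0.10 (SE, adjusted p = 0.0361 by limma) with DMSO and by 0.46 ± 0.10 (adjusted p = 0.0113 by limma) with 79-6 relative to fresh. The DMSO call was lost without fresh replicate 1 (0.179), fresh replicate 2 (0.0926) or DMSO replicate 2 (0.182), and the 79-6 call without fresh replicate 1 (0.0738) or 79-6 replicate 2 (0.0615). Macrophages express this receptor too. Of 17 macrophage and dendritic cell markers, 5 were called higher and 0 lower with DMSO relative to fresh. With 79-6 relative to fresh, 13 were called higher and 0 lower. The part of these cells in the result was not tested.

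Tnfrsf21, also called DR6, went the other way, with 9.03 and 9.28 with 79-6, 8.97 and 9.20 with DMSO and 9.47 and 9.59 in fresh cells. It fell by 0.45 with DMSO (adjusted p = 0.0326 by limma) and by 0.38 with 79-6 (adjusted p = 0.0492 by limma) relative to fresh. The DMSO call was lost without fresh replicate 1 (0.0774), fresh replicate 2 (0.163) or DMSO replicate 1 (0.179). The 79-6 call was lost without fresh replicate 1 (0.0988), fresh replicate 2 (0.208) or 79-6 replicate 1 (0.173), and on quantile-normalized values (0.0623). Tnfrsf10b, the receptor that TRAIL engages for killing in mice, and Tnfrsf25 (DR3) were called in no comparison. Between 79-6 and DMSO limma called 0 of the 5 death domain receptors. There 0 had an unadjusted p under 0.05, beside 4079 of all 19937 genes.

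Of the 15 receptors without a death domain, Tnfrsf9, Tnfrsf8 and Tnfrsf4 were called lower with DMSO than in fresh cells and the other 12 were not called. Tnfrsf9, which encodes CD137, had log2 signals of 7.85 and 7.96 with 79-6, 7.31 and 7.50 with DMSO and 8.51 and 8.74 in fresh cells. The groups did not overlap, with fresh highest and DMSO lowest. The change was -1.22 ± 0.11 (SE, adjusted p = 0.000317 by limma) for DMSO against fresh, 0.50 ± 0.11 (adjusted p = 0.0477 by limma) for 79-6 against DMSO and -0.72 ± 0.11 (adjusted p = 0.00252 by limma) for 79-6 against fresh. The call between 79-6 and DMSO was lost without DMSO replicate 1 (0.204), DMSO replicate 2 (0.132), 79-6 replicate 1 (0.0749) or 79-6 replicate 2 (0.205). NK cells can express CD137. Of the 13 NK and innate lymphoid markers, 5 rose and 0 fell with 79-6 relative to DMSO, and 1 rose and 7 fell with DMSO relative to fresh, among them Gzmb (-2.28) and Nkg7 (-1.28). With 79-6 relative to fresh, where Tnfrsf9 fell, 5 of these markers rose and 1 fell. The part of NK cells in the result was not tested.

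Tnfrsf8, which encodes CD30, had 8.51 and 8.20 with 79-6, 8.92 and 8.89 with DMSO and 9.84 and 9.73 in fresh cells. It was lowest with 79-6 and highest in fresh cells, with no overlap. The change was -0.88 ± 0.11 (SE, adjusted p = 0.00156 by limma) for DMSO against fresh, -0.55 ± 0.11 (adjusted p = 0.0414 by limma) for 79-6 against DMSO and -1.43 ± 0.11 (2.69-fold lower, adjusted p = 0.000155 by limma) for 79-6 against fresh. It was the single member called lower between 79-6 and DMSO. That call was lost without either or both fresh arrays (0.0602 each), DMSO replicate 1 (0.175), DMSO replicate 2 (0.174) or 79-6 replicate 2 (0.136, with a change of -0.39).

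Tnfrsf4, which encodes OX40, had 7.27 and 7.20 with 79-6, 7.08 and 7.07 with DMSO and 7.52 and 7.66 in fresh cells. It fell by 0.51 with DMSO (adjusted p = 0.00406 by limma) and by 0.35 with 79-6 (adjusted p = 0.0147 by limma) relative to fresh. The 79-6 call was lost without fresh replicate 2 (0.104) or 79-6 replicate 2 (0.0672). Tnfrsf18 (GITR), another costimulator, had 8.01 and 8.16 with 79-6, 7.62 and 8.01 with DMSO and 7.95 and 7.80 in fresh cells, and its interval for DMSO against fresh ran from -0.38 to 0.25.

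Tnfrsf13c was called higher with 79-6 in both comparisons and Tnfrsf14 relative to fresh cells. Tnfrsf13c, the BAFF receptor known for the survival of B cells, had 8.34 and 8.59 with 79-6, 7.96 and 7.71 with DMSO and 7.78 and 7.96 in fresh cells. Both 79-6 arrays lay above the other 4. It rose by 0.63 ± 0.12 (SE, 1.54-fold, adjusted p = 0.0414 by limma) relative to DMSO and by 0.59 ± 0.12 (adjusted p = 0.0125 by limma) relative to fresh. The call against DMSO was lost without either or both fresh arrays (0.0526 each), DMSO replicate 1 (0.0927), DMSO replicate 2 (0.2) or 79-6 replicate 2 (0.184), and the call against fresh without fresh replicate 1 (0.0774) or 79-6 replicate 2 (0.0668). Of the 9 measured B cell markers 1 was called higher with 79-6 than with DMSO, Cd79b (0.50, adjusted p = 0.0213 by limma). The changes of all 9 in that comparison ran from -0.15 (Cd79a) to that of Cd79b, with 6 of 9 positive and a median of 0.07. With 79-6 relative to fresh, 0 of the 9 were called higher and 3 lower, with a median change of 0.04. The part of B cells in the result was not tested.

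Tnfrsf14 (HVEM), the receptor of LIGHT, had 10.02 and 10.17 with 79-6, 9.82 and 9.73 with DMSO and 9.73 and 9.76 in fresh cells. It rose by 0.35 ± 0.08 (SE, adjusted p = 0.0187 by limma) with 79-6 relative to fresh, a call lost without fresh replicate 1 (0.1), fresh replicate 2 (0.0752) or 79-6 replicate 2 (0.0842). Relative to DMSO the change was 0.32 (95% interval 0.13 to 0.51, adjusted p = 0.0768 by limma). Cd40, a receptor of antigen-presenting cells and epithelium, had a similar value of 0.34 there (95% interval 0.13 to 0.55, adjusted p = 0.0792 by limma), with 7.46 and 7.53 with 79-6, 7.25 and 7.05 with DMSO and 7.32 and 7.37 in fresh cells.

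The remaining receptors without a death domain, called in no comparison, were Eda2r, Ltbr, Tnfrsf1b, Tnfrsf11a (RANK), Tnfrsf12a (the TWEAK receptor), Tnfrsf13b (TACI), Tnfrsf17 (BCMA) and Tnfrsf19. Ltbr and Tnfrsf11a, which epithelial cells use to receive lymphotoxin and RANK ligand, changed by -0.25 and 0.12 for DMSO against fresh (adjusted p = 0.317 and 0.464 by limma), in the comparison where 12 of 14 epithelial markers fell. Ltbr differed between replicates by about as much as between groups, with 7.03 and 7.42 with 79-6, 6.96 and 7.28 with DMSO and 7.35 and 7.39 in fresh cells.

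Among the decoys, Tnfrsf22 and Tnfrsf23 are known in mice to bind TRAIL without a death domain, Tnfrsf11b (osteoprotegerin) binds RANK ligand, and Tnfrsf26 lies beside Tnfrsf22 and Tnfrsf23 in the genome. Tnfrsf26 had log2 signals of 10.0006 and 10.03 with 79-6, 9.47 and 9.44 with DMSO and 8.69 and 8.65 in fresh cells. Replicates lay within 0.05 of each other while the groups were clearly apart. It rose by 0.78 ± 0.07 (SE, adjusted p = 0.000325 by limma) with DMSO relative to fresh, by 0.56 ± 0.07 (1.48-fold, adjusted p = 0.00958 by limma) with 79-6 relative to DMSO and by 1.34 ± 0.07 (adjusted p = 3e-05 by limma) with 79-6 relative to fresh. Of the members called between 79-6 and DMSO it had the smallest adjusted p. That call was lost without DMSO replicate 1 (0.0697), DMSO replicate 2 (0.0819) or 79-6 replicate 2 (0.0627), at changes of 0.54 to 0.58, while both calls against fresh stood in each fit without 1 array.

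Many members are neighbours in the genome. In the RefSeq annotation (GRCm38.p6, used only for order) 18 of the 39 lie next to another member with no protein-coding gene between, in 11 such pairs. Tnfrsf26 rose while its neighbour Tnfrsf22 changed by 0.02 for DMSO against fresh (95% interval -0.21 to 0.25) and by -0.01 for 79-6 against DMSO (-0.24 to 0.23), and Tnfrsf23, next in order, by 0.12 and 0.13. Tnfrsf8 fell while its neighbour Tnfrsf1b had intervals of -0.32 to 0.11 and -0.05 to 0.39 in the same 2 comparisons. Ltb rose beside Tnf, whose interval for DMSO against fresh was -0.56 to 0.05. The change of a gene was not tested against that of its neighbour, and probes shared between related genes of 1 cluster were not checked.

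**Figure D3:**
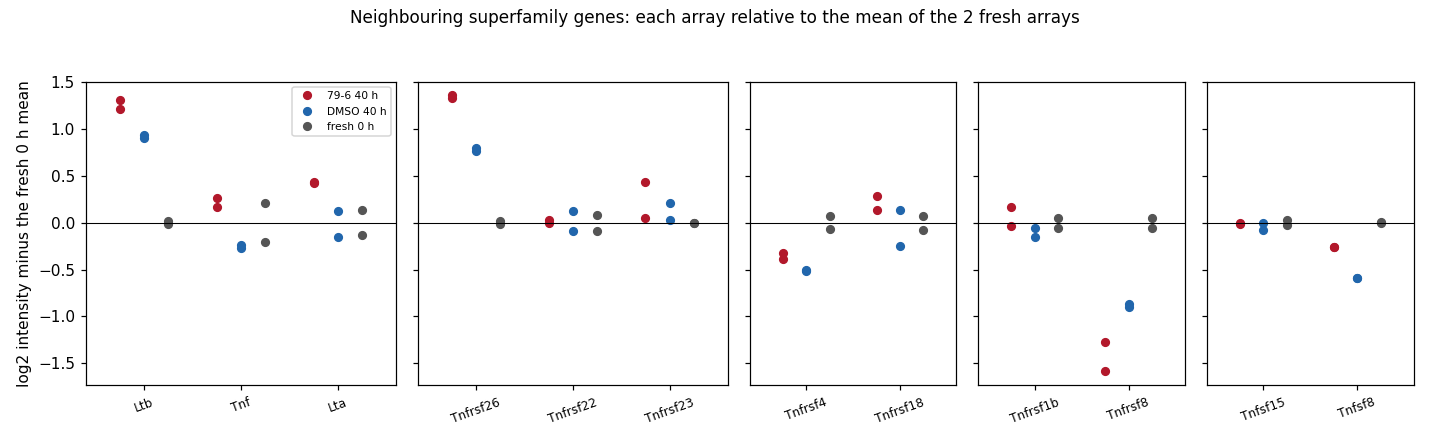
Log2 intensity of each array minus the mean of the 2 fresh arrays (y axis) for 5 runs of neighbouring genes (panels), with 79-6 40 h in red, DMSO 40 h in blue and fresh 0 h in grey. Ltb, Tnfrsf26, Tnfrsf4, Tnfrsf8 and Tnfsf8 leave 0 in both stimulated groups, while Tnfrsf22, Tnfrsf1b and Tnfsf15 stay within about 0.2 of it.

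Ligands and their receptors were set side by side. CD30 and its ligand both fell with DMSO relative to fresh (-0.88 for Tnfrsf8 and -0.59 for Tnfsf8), and between 79-6 and DMSO the receptor fell (-0.55) and the ligand rose (0.33). TRAIL fell with DMSO while Tnfrsf10b had a 95% interval of -0.32 to 0.31. Fas rose while its ligand Fasl was not called. Ltb rose while Ltbr did not pass the test. CD137 and OX40 fell without a call for their ligands Tnfsf9 (0.06) and Tnfsf4 (0.09). Cd27, the receptor of Cd70, rose by 0.66 with DMSO relative to fresh (adjusted p = 0.00146 by limma), with Cd70 at 0.17 (adjusted p = 0.191 by limma).

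Downstream of the receptors, 32 of 38 listed signalling genes had a probe set of their own. For DMSO against fresh 6 were called higher and 3 lower, for 79-6 against DMSO 2 higher and 0 lower, and for 79-6 against fresh 8 higher and 4 lower. The 9, 2 and 12 of 32 called stand beside 19.6%, 4.36% and 26% of all genes. For 79-6 against DMSO, 12 of 32 had an unadjusted p under 0.05 in limma, beside 4079 of all 19937 genes. Their median changes were 0.01, 0.10 and 0.07, beside the medians of all genes given above. Read against the same shares of all genes, 2 of 10 NF-κB and IKK genes measured rose and 1 fell with DMSO relative to fresh. With 79-6 relative to fresh, 3 rose and 2 fell. Between 79-6 and DMSO limma called 0 of the 10. There 6 had an unadjusted p under 0.05, beside the same 4079 of all 19937 genes. Nfkb2, which encodes the precursor of the non-canonical NF-κB subunit and lies downstream of Ltbr, CD40 and RANK, had log2 signals of 9.01 and 9.14 with 79-6, 8.78 and 8.88 with DMSO and 10.40 and 10.43 in fresh cells. It fell by 1.58 ± 0.08 (SE, adjusted p = 3e-05 by limma) with DMSO and by 1.34 ± 0.08 (adjusted p = 5.51e-05 by limma) with 79-6 relative to fresh. Nfkbia, the inhibitor that NF-κB itself induces, rose by 0.70 with DMSO (adjusted p = 0.00645 by limma) and by 0.99 with 79-6 (adjusted p = 0.00113 by limma) relative to fresh. Rel, a subunit of lymphocytes, rose by 0.43 with DMSO (adjusted p = 0.0256 by limma; not called without fresh replicate 1 or DMSO replicate 2, up to 0.149) and by 0.62 with 79-6 (adjusted p = 0.00478 by limma). Bcl3 (0.65) rose and Nfkbie (-0.41) fell with 79-6 relative to fresh, Nfkbie not without fresh replicate 1 (0.0598), and Rela and Relb were called in no comparison.

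Of 16 adaptors, ubiquitin ligases and kinases measured, 2 rose with DMSO relative to fresh, 2 with 79-6 relative to DMSO and 4 with 79-6 relative to fresh, where 19.6%, 4.36% and 26% of all genes were called in either direction. Traf5, an adaptor of CD30, OX40 and HVEM, had 8.19 and 8.11 with 79-6, 7.42 and 7.42 with DMSO and 7.07 and 6.87 in fresh cells. The groups did not overlap and 79-6 was highest. It rose by 0.73 ± 0.09 (SE, adjusted p = 0.00897 by limma) with 79-6 relative to DMSO, by 0.45 ± 0.09 (adjusted p = 0.0102 by limma) with DMSO relative to fresh and by 1.18 ± 0.09 (adjusted p = 0.000129 by limma) with 79-6 relative to fresh. The call between 79-6 and DMSO was lost without either DMSO array or 79-6 replicate 2 (up to 0.0776), and that between DMSO and fresh without either DMSO array or fresh replicate 2 (up to 0.0679). Birc3, a ubiquitin ligase induced by NF-κB, rose by 0.38 with 79-6 relative to DMSO (adjusted p = 0.0463 by limma; 0.0631 to 0.198 without any 1 array) and by 0.59 relative to fresh. Traf2 rose by 0.30 with DMSO (adjusted p = 0.0326 by limma; not called without any 1 of the 4 arrays compared, up to 0.178) and by 0.41 with 79-6 relative to fresh (0.0568 without fresh replicate 1). Cyld rose by 0.25 with 79-6 relative to fresh (adjusted p = 0.0342 by limma; 0.0573 to 0.162 without any 1 array).

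Beside the 19.6%, 4.36% and 26% of all genes called, 2 of 6 death signalling genes measured rose and 2 fell with DMSO relative to fresh. With 79-6 relative to fresh, 1 rose and 2 fell. Between 79-6 and DMSO limma called 0 of the 6. There 2 had an unadjusted p under 0.05, beside 4079 of all 19937 genes. Casp8, the initiator caspase recruited by Fas, had log2 signals of 12.27 and 12.28 with 79-6, 12.02 and 12.02 with DMSO and 12.47 and 12.53 in fresh cells. It fell by 0.48 with DMSO relative to fresh (adjusted p = 0.00284 by limma) and by 0.23 with 79-6 relative to fresh (adjusted p = 0.0463 by limma; 0.0739 to 0.221 without any 1 array). Cflar, which encodes the caspase 8 inhibitor c-FLIP, rose by 0.38 with DMSO (adjusted p = 0.0128 by limma; not called without fresh replicate 1 or either DMSO array, up to 0.0949) and by 0.47 with 79-6 (adjusted p = 0.00412 by limma) relative to fresh. Mlkl, the effector of necroptosis, fell by 0.72 with DMSO (adjusted p = 0.00853 by limma; not called without either DMSO array, up to 0.0526) and by 0.43 with 79-6 (adjusted p = 0.0491 by limma; called in 1 of the 6 fits without 1 array, up to 0.212). Bid rose by 0.33 with DMSO (adjusted p = 0.0245 by limma; not called without any 1 of the 4 arrays compared, up to 0.115), and Fadd and Ripk3 were called in no comparison. Of 5 superfamily genes outside the rule, Ngfr fell by 0.90 with DMSO (adjusted p = 0.00127 by limma), Relt rose by 0.32 with 79-6 relative to fresh (adjusted p = 0.0136 by limma), and Eda and Edar were called in no comparison.

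**Figure D4:**
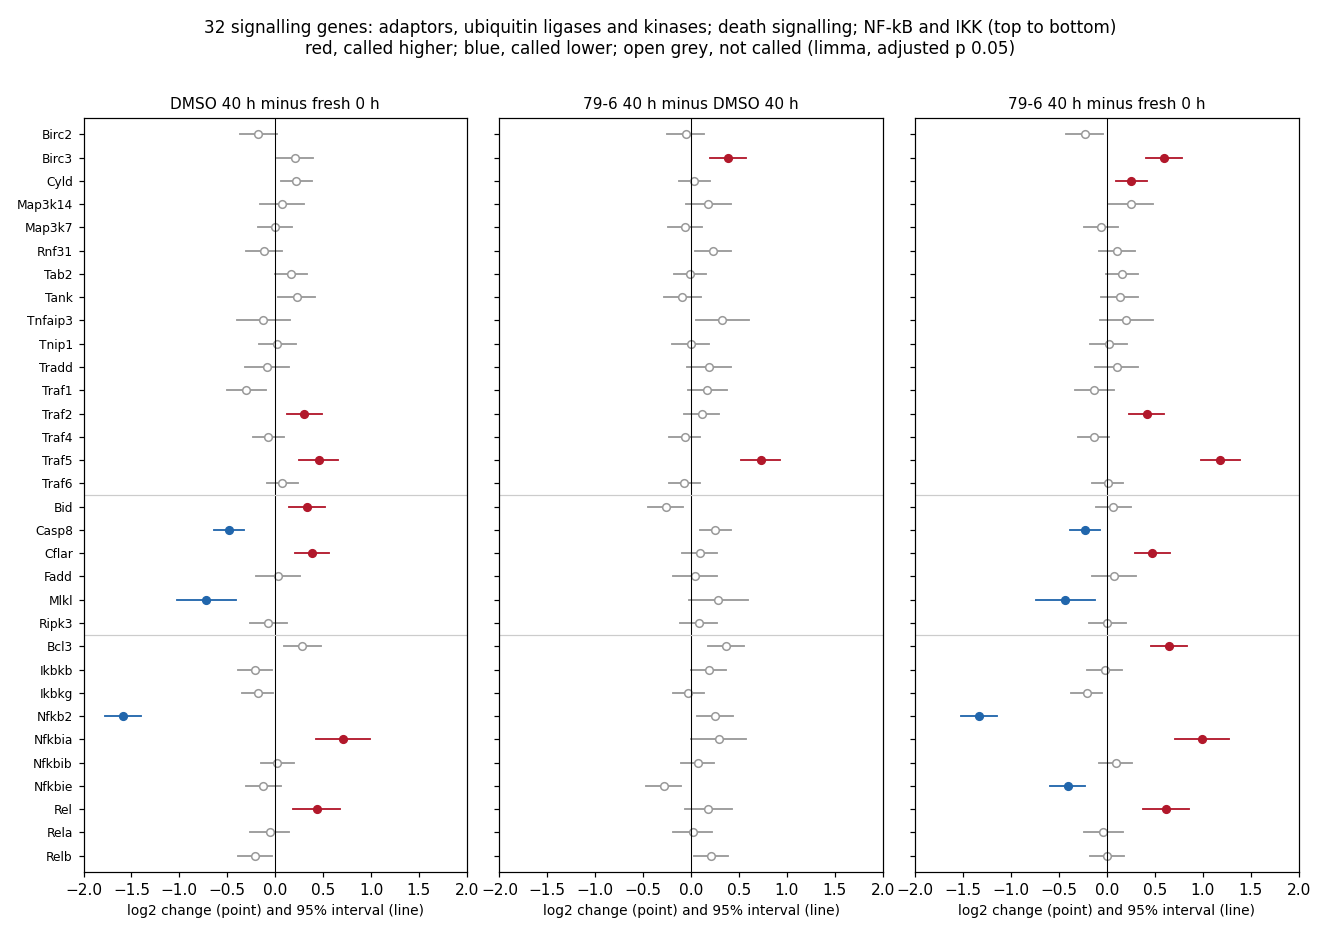
Log2 change (x axis, point) with its 95% interval (line) of 32 signalling genes (rows) in the 3 comparisons (panels): adaptors, ubiquitin ligases and kinases above, death signalling in the middle, NF-κB subunits, inhibitors and IKK below. Red was called higher, blue lower and open grey not called. Nfkb2 lies furthest to the left against fresh cells, and Traf5 furthest to the right for 79-6 against DMSO.

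Against fresh cells, fewer of all genes were called without any 1 array of the groups compared. The count of members called also depended on single arrays. For DMSO against fresh it was 8 without fresh replicate 2 and 9 to 11 without any other array. For 79-6 against fresh it was 8 without fresh replicate 1 or 79-6 replicate 2, and 10 to 14 otherwise. For 79-6 against DMSO limma called 3 members without either fresh array or 79-6 replicate 1 and 0 without DMSO replicate 1, DMSO replicate 2 or 79-6 replicate 2, where 11 members had an unadjusted p under 0.05 in each of these 3 fits. Over all genes those 3 fits called 113, 93 and 127 genes, against 869 with all arrays. Of the 31 calls over the 3 comparisons, 14 were made in every fit without 1 array, all of them against fresh cells: Fas, Ltb, Tnfrsf26, Tnfrsf8, Tnfrsf9 and Tnfsf10 in both comparisons, and Tnfrsf4 and Tnfsf8 for DMSO.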

How the data were processed

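The series matrix held 1 value per probe set and array. The deposited values are RMA intensities on the linear scale (8.75 to 25316), made with RMA and the R package oligo per the submitters' processing notes. Tool versions and the genome build were not given in the sources used here. Log2 was taken before every test. Of 34760 probe sets, 21640 had 1 symbol, 1321 several and 11799 none in the platform annotation, and 19937 genes were each read by their brightest 1-symbol probe set (mean of 6 arrays). All 39 members matched RefSeq by Entrez identifier, with 0 symbols changed. All arrays entered 1 limma model (limma 3.58.1, R 4.3.3) with group means; eBayes had no trend or robust option and gave 4.237 prior degrees of freedom beside 3 residual ones. Tests were two-sided at 0.05 after Benjamini-Hochberg adjustment across the genes. Errors are limma standard errors, and intervals are 95%. Arrays give no counts, so their number limits the precision. The fit was tested on simulated data. The members and gene lists were chosen with earlier results of these data known, so no list was tested as a set. By the naming rule every called member is given per array, other members by range and count, called signalling genes up to 4 per list and direction, and Bcl6, Thy1 and Cd27 as checks. Cyp1a1 and Ahrr are given as further checks. No array was left out, and 0 array columns were unused. Alternatives were a replicate block, leaving out each array, median scaling, quantile normalization, a filter on low signal, only the arrays compared, trend and robust settings, and the mean of a gene's probe sets.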

Additional observations from a re-analysis of the deposited data

How the results depend on the processing

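Of 31 calls of members, 24 held in each of the 7 alternatives other than leaving out an array in which the gene was tested, 14 also held in all 6 fits without 1 array, and 0 reversed. Without each array in turn the members called ranged from 8 to 11 for DMSO against fresh, 0 to 3 for 79-6 against DMSO and 8 to 14 for 79-6 against fresh, and the signalling genes from 3 to 9, from 0 to 1 and from 9 to 10. Signalling calls for DMSO against fresh, 9 with all arrays, fell to 4 and 3 when DMSO replicate 1 or 2 was left out, and to 5 when fresh replicate 1 was. In the fits with 0 calls limma gave 11 members (each of the 3 fits) and 5 to 13 signalling genes an unadjusted p under 0.05. A fit that leaves out 1 array assumes that the lone array of its group varies like the others. For 79-6 against DMSO, the members called were 3 and the signalling genes 1 with a replicate block, and likewise 3 and 1 with only the arrays compared. With only the arrays compared, Tnfrsf26 and Tnfrsf9 alone kept their calls from the model of all arrays. The 3 members there thus include a member that the model of all arrays did not call. Tnfrsf26 and Tnfrsf9 were also the only ones to keep these calls without either fresh array. With a filter at the 40th percentile of signal 5 signalling genes were called, as with trend and robust settings. Why these counts moved was not tested, except that fits with fewer arrays have fewer degrees of freedom. Over all genes, trend and robust settings called 1723 genes for 79-6 against DMSO, the low signal filter 1395 and median scaling 1140 (456 higher, 684 lower), against 869 (475 higher, 394 lower). For DMSO against fresh median scaling called 2388 higher and 1716 lower, against 1773 higher and 2129 lower. Replicate numbers were not shown to pair arrays: deviations of same-numbered arrays correlated at 0.00357, -0.074 and 0.0948. The replicate block, which ended the calls of Ltb (0.0713), Tnfsf8 (0.0687), Tnfrsf13c (0.0507) and Birc3 (0.0546) for 79-6 against DMSO and of Lta (0.052), Cyld (0.0562) and Casp8 (0.0744) for 79-6 against fresh (adjusted p by limma), left members called at 11 for DMSO against fresh and 13 for 79-6 against fresh. No scanner files were used here, so background correction was not varied, and low signals limit what can be said of 13 members.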

Other observations

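The probe set that the annotation gives to Tnfsf12, Tnfsf13 and Tnfsfm13, the TWEAK and APRIL locus, entered none of the comparisons. Its log2 signals were 6.83 and 6.97 with 79-6, 6.74 and 6.68 with DMSO and 6.53 and 6.63 in fresh cells.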
